A study of Mus musculus with 27 samples.

Results

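Solute carriers are membrane proteins that move ions, metals, amino acids, nucleotides, vitamins and sugars across the plasma membrane and the membranes of organelles. The members described here were all probe sets whose single gene symbol in the platform annotation begins with Slc and a digit, without Slc2a1 and Slc25a25, and whose mean log2(intensity + 12) over all arrays was at least 7. Of 12488 probe sets on the array, 185 named a gene of this family (151 genes), and 97 probe sets of 88 genes met the rule, out of 8252 genes that the platform names by a single symbol. Just inside the limit lay Slc30a5 at 7.11, Slc37a4 at 7.16 and Slc16a8 at 7.20, and just outside it Slc2a5 at 6.95, Slc7a3 at 6.93 and Slc7a2 at 6.91. Among the 97 probe sets, 3 match the rule by symbol but stand for adaptor proteins and not transporters: Slc9a3r1, Slc9a3r2 and Slc4a1ap. They form a class apart from the transporters but stay in every count over the 97 members.

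The cells were NIH/3T3, an immortal line of mouse embryonic fibroblasts, and their total RNA was hybridised to 27 Affymetrix U74v2 arrays. All cultures had been stepped from 20% to 10% and then 5% serum, were given 15 µM forskolin for 2 h in serum-free medium, and stayed without serum after the drug was rinsed off. Forskolin activates adenylyl cyclase and so raises cyclic AMP. Flasks were taken right after the pulse (0 h) and every 6 h until 48 h, in 3 experiments described as biological replicates, which gave 9 time points with 3 arrays each. The 0 h arrays are therefore pulsed cells at the end of drug exposure, and cultures without forskolin were not analysed here, so effects of the drug, of serum removal and of time in culture cannot be told apart.

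The family is named by gene number, and its subfamilies follow the cargo. The Slc30 and Slc39 proteins move zinc out of and into the cytosol, Slc31a1 takes up copper, Slc12 and Slc4 proteins carry chloride together with cations or in exchange for bicarbonate, Slc7a5 pairs with Slc3a2 to exchange large neutral amino acids, and most Slc25 proteins sit in the inner mitochondrial membrane. In fibroblasts these carriers set cell volume, internal pH, and the supply of nutrients and metals.

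Intensities are given as log2 values after quantile normalization, a change is a difference between means of 3 arrays each ± SE, and "rose" or "fell" means an adjusted p below 0.05 in limma over all 7453 probe sets kept. All 97 members were among those kept. Each SE comes from the fit without the experiment as a block, also where an adjusted p with the block is given. The level of one probe set was not set against that of another. Array medians ranged from 166.8 to 200.7 intensity units, and no 2 arrays held identical values. All 9 fibroblast markers listed lay above the low-intensity limit, with a median percentile of 98.8, as did 1 of 5 markers of epithelium (Cdh1), 1 of 4 of endothelium (Kdr), 3 of 4 of muscle, 2 of 4 of neurons and glia and 0 of 3 measured markers of blood cells. The ratio of 3′ to 5′ signal of the actin control, a measure of RNA integrity and labelling, had medians between 1.32 and 1.51 at the 9 time points.

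Over the 48 h, 6 of the 97 members varied with time, a share close to the 7.30% of all probe sets that did. With the experiment as a block in the fit 28 members varied, against 26.4% of all probe sets. Without the block the 6 were Slc31a1 (copper uptake), Slc12a7 and Slc12a4 (potassium-chloride cotransport), Slc4a2 (chloride-bicarbonate exchange), Slc7a5 (amino acid exchange) and Slc25a17 (peroxisomal cofactor transport). In bulk RNA, fewer cells of a type and less RNA per cell cannot be told apart. The count was 6 without experiment 1, 1 without experiment 2 and 0 without experiment 3. Over all 7453 probe sets it was 507, 111 and 31 under these omissions, beside 544 with all experiments. Counts and calls over time with an experiment left out come from the fit without the block, here and below. The mean at 0 h was the highest or the lowest of the 9 time means for 55 of the 97 members, and for 3336 of the 7453 probe sets.

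At 6 h after the pulse, 4 members rose (3.70% of all probe sets) and 7 fell (2.39% of all). With the block, 9 rose (9.97% of all) and 12 fell (6.74% of all). The rises without the block were Slc44a2, Slc12a7, Slc4a2 and Slc50a1, and the falls were Slc35e1, both probe sets of Slc31a1, Slc35b1, Slc10a3, Slc66a2 and Slc39a7. At 24 h, 4 rose (4.08% of all) and 4 fell (2.84% of all), and with the block 12 rose (10.6% of all) and 12 fell (7.96% of all). The 24 h rises without the block were the chloride-bicarbonate exchangers Slc4a2 and Slc4a3 and the potassium-chloride cotransporters Slc12a7 and Slc12a4. Another potassium-chloride cotransporter among the members, Slc12a5, was not called at 24 h. Without the block, the share of members called lay near the share of all probe sets, except for the falls at 6 h. There 7 of 97 (2 of them for 1 gene) stood beside 2.39%. With the block, 12.4% of members fell at 6 h and 12.4% at 24 h, beside 6.74% and 7.96% of all. With arrays centred on their medians in place of quantile normalization, 2 members fell at 6 h, and 2 rose and 2 fell at 24 h, and without a filter on low values 4 fell at 6 h and 2 rose at 24 h. Leaving out an experiment changed these counts by more than 1.5 times: the rises at 6 h numbered 2 without experiment 1 and 1 without experiment 3, and the falls 3, 1 and 0 without experiments 1, 2 and 3. At 24 h, 1 member rose without experiment 1 and 1 without experiment 3, and 1 fell without experiment 2 and 1 without experiment 3. Over all probe sets, 6 h rises and falls together numbered 338, 152 and 110 without experiments 1, 2 and 3, beside 454 with all. Those at 24 h numbered 409, 199 and 126, beside 516. These contrasts and the F test over time share the 0 h arrays.

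From 6 h to 48 h, 4 members rose (2.83% of all probe sets) and 4 fell (3.30% of all) along a straight line in time, and with the block 7 rose (8.05% of all) and 10 fell (9.02% of all). Slc7a5, Slc35b1, Slc30a4 and 1 of the 2 probe sets of Slc31a1 rose, while Slc25a1, Slc12a2, Slc25a17 and Slc4a2 fell. No trend rise was called without experiment 2 or without experiment 3. Trend falls numbered 7 without experiment 1, 1 without experiment 2 and 0 without experiment 3. Over all probe sets, trend rises and falls together numbered 737, 92 and 37 under these omissions, beside 457 with all experiments.

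**Figure D1:**
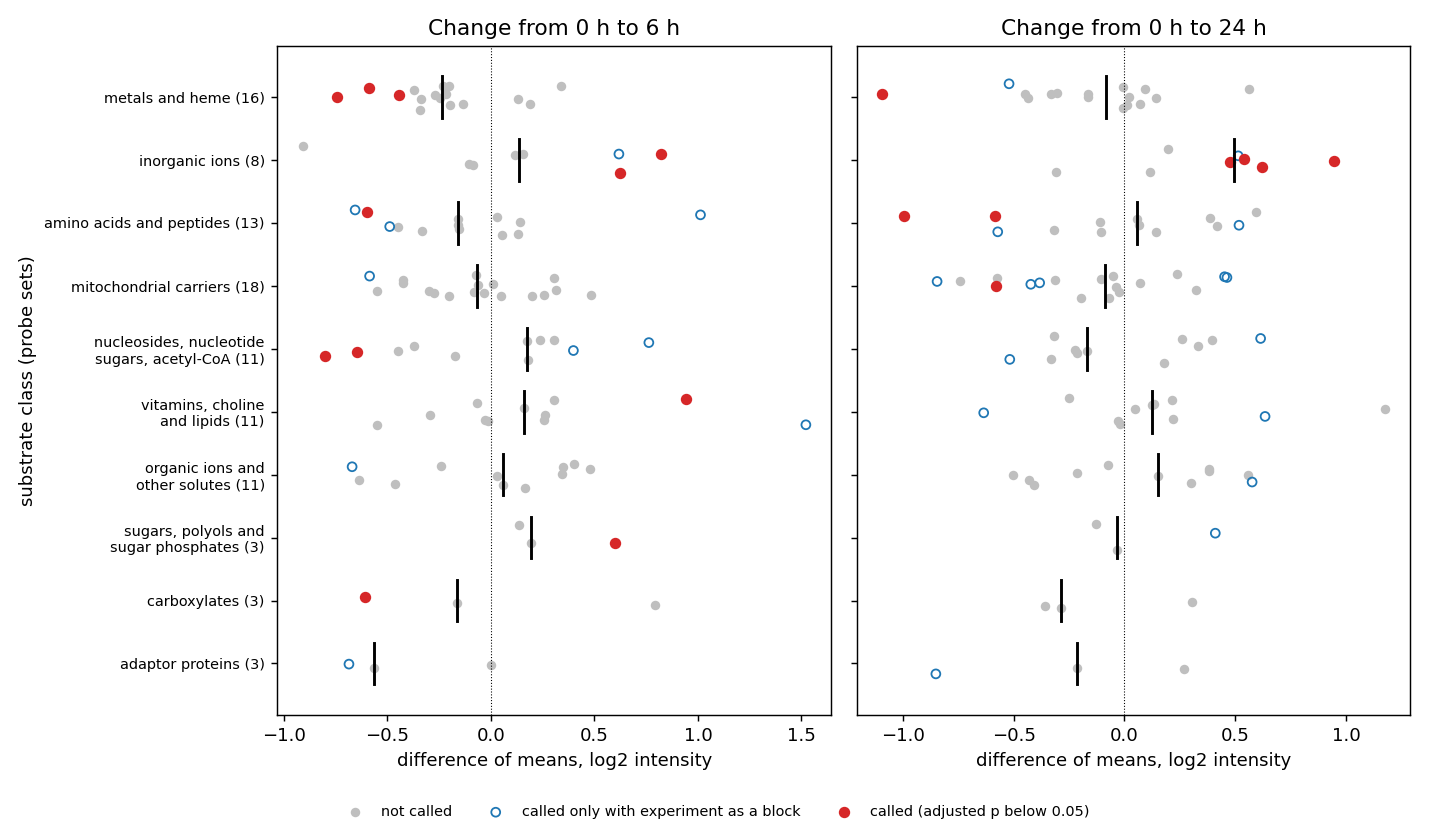
Change from 0 h to 6 h and from 0 h to 24 h on the log2 scale for the 97 member probe sets, by substrate class; each point is 1 probe set (mean difference of 3 arrays against 3), the black bar is the class median, red points passed the test, open blue points passed only with the experiment as a block, and grey points did not pass. The inorganic ion carriers lie highest at 24 h, with a median of 0.50, and the metal carriers have a median of -0.24 at 6 h.

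Of the 16 probe sets for metal and heme carriers (14 genes), 3 fell (2.39% of all probe sets) and 0 rose (3.70% of all) at 6 h. A change above 0 at 6 h was found for 3 of 16, beside 3683 of 7453 over all tested. The median change of these carriers was -0.24 at 6 h and -0.09 at 24 h, beside -0.004 and 0.008 over all probe sets tested. The falls were those of the copper importer Slc31a1 (both probe sets) and of Slc39a7, a zinc transporter of the endoplasmic reticulum. Slc31a1 by its first probe set, 101877_at, stood at 11.18, 10.97 and 10.90 in experiments 1, 2 and 3 at 0 h, at 10.40, 10.23 and 10.20 at 6 h, and at 9.43, 9.75 and 9.72 at 12 h. The 3 arrays at 0 h were higher than every later array, and the groups did not overlap. The change was -0.74 ± 0.17 at 6 h (adjusted p = 0.00748) and -1.09 ± 0.17 at 24 h (adjusted p = 1.61e-04). The 24 h fall was called under each omission of an experiment, whereas the 6 h fall was not called without experiment 2 (adjusted p = 0.0876) or without experiment 3 (adjusted p = 0.135).

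The other Slc31a1 probe set, 103845_at, went from 9.88, 9.96 and 9.76 at 0 h to 9.27, 9.42 and 9.14 at 6 h, a change of -0.59 ± 0.17 (adjusted p = 0.0379). It then rose by 0.29 ± 0.08 per day from 6 h on (adjusted p = 0.0295) and stood at 9.94, 9.65 and 9.48 at 48 h, while the slope of 101877_at was 0.0044 per day. The probe sets for this gene therefore both fell early and differed in their later course; that difference was not tested. At 24 h 103845_at was 0.52 below 0 h, which was called only with the block (adjusted p = 0.0261). Its 6 h fall was lost whichever experiment was left out, with adjusted p up to 0.338, and its trend was not called without experiment 2 or 3, with adjusted p up to 0.260.

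Slc39a7 fell at 6 h from 11.48, 11.80 and 11.61 to 11.11, 11.25 and 11.20, by 0.44 ± 0.13 on the log2 scale (adjusted p = 0.0494), with no overlap between the groups. That call was lost when any one of the experiments was left out (adjusted p from 0.0516 to 0.416). Slc30a4, a zinc exporter into vesicles, rose along the trend by 0.39 ± 0.12 per day (adjusted p = 0.0438). Its arrays read 9.31, 8.86 and 8.84 at 6 h and 10.06, 9.51 and 9.42 at 48 h, so all 3 experiments ended higher than they began. The trend was not called without experiment 2 or 3, with adjusted p up to 0.296. One probe set of the iron importer Slc11a2 (104451_at) had a slope of 0.33 ± 0.12 per day that passed only with the block (adjusted p = 0.0299), and the other (102642_at) had a slope of 0.06.

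To show what lies before the start sites of the carriers that fell or rose, RefSeq promoter windows (250 bases before the start to 50 after, assembly GRCm38.p6) were searched on both strands for the cyclic AMP response element TGACGTCA, for its core TGACG, which the full element contains, and for TGATGNAA, a core shared by amino acid response elements. Of the 88 member genes 72 had a window. The TGACG core was present in 29 of 72 (40.28%), in 36.88% of the 4569 tested genes that had a window and in 23.05% of all genes in the table. The full element was present in 1 of 72 (1.39%), Slc25a36, and in 3.37% of tested genes and 2.03% of all genes in the table. The TGATGNAA core was present in 3 of 72 (4.17%), Slc1a4, Slc23a3 and Slc50a1, and in 2.52% of tested genes and 4.51% of all genes in the table. As examples, the windows of Slc31a1 and Slc35b1, which fell at 6 h, and of Slc25a36, which alone held the full element, read as follows, 5′ to 3′ along the gene, with the match in capitals (for Slc35b1 the core is on the opposite strand). They lie at chr4:62360451-62360750 on the plus strand, chr11:95384606-95384905 on the plus strand and chr9:97110992-97111291 on the minus strand.
Slc31a1: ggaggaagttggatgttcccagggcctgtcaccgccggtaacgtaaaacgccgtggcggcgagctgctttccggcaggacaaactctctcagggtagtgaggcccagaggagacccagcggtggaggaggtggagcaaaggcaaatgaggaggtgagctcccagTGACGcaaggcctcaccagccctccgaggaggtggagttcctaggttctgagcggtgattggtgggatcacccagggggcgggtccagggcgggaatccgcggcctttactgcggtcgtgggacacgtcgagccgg
Slc35b1: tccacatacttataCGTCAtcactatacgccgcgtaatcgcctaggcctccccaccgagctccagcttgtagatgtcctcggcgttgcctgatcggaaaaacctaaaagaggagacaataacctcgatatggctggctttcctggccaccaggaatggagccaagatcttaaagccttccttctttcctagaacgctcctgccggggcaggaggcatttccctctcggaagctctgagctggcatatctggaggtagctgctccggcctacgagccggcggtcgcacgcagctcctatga
Slc25a36: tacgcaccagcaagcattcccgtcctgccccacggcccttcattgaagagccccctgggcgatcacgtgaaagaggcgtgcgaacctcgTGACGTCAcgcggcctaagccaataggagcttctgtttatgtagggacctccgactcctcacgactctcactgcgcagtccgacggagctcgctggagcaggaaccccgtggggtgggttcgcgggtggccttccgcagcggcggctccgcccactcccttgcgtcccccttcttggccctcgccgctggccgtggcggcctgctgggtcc
The matches begin at -86 in Slc31a1, -236 in Slc35b1 and -161 in Slc25a36, counted from the start site. Of the 18 genes called without the block in any comparison over time, 14 had a window and 6 of these held TGACG: Slc31a1, Slc35b1, Slc35e1, Slc39a7, Slc38a4 and Slc25a1. The windows of Slc12a4, Slc12a7, Slc25a17, Slc30a4, Slc44a2, Slc4a2, Slc4a3 and Slc50a1 held none. This tally was made after the calls were known, and a match of letters is a description of the sequence and not a measured binding site.

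Of the 8 inorganic ion carriers, 2 rose (3.70% of all probe sets) and 0 fell (2.39% of all) at 6 h. At 24 h, 4 rose (4.08% of all) and 0 fell (2.84% of all). A change above 0 at 24 h was found for 7 of 8, beside 3793 of 7453 over all tested. The median change was 0.50, beside 0.008. Taken within experiments 1, 2 and 3, it was 0.46, 0.19 and 0.39. Of the classes, the inorganic ion carriers had the largest median share of the sum of squares between time points, 56.3%, beside 31.5% over all probe sets tested. The Slc12a7 arrays, for a potassium-chloride cotransporter that lets cells shed salt and water, read 7.92, 8.05 and 8.27 at 0 h and 8.95, 8.88 and 8.89 at 6 h. All 24 later arrays, from 8.65 to 9.19, were higher than the 3 at 0 h. The rise was 0.82 ± 0.15 at 6 h (adjusted p = 0.00106) and 0.94 ± 0.15 at 24 h (adjusted p = 2.43e-04), and both calls were kept whichever experiment was left out, with adjusted p up to 0.0499 at 6 h and 0.0287 at 24 h.

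Slc12a4, a related cotransporter, moved later. Its values were 9.27, 9.17 and 9.02 at 0 h, 9.10, 9.21 and 8.84 at 6 h, and 9.98, 9.72 and 9.38 at 24 h. The groups at 0 h and 6 h overlapped, and those at 0 h and 24 h did not. The rise at 24 h was 0.54 ± 0.16 (adjusted p = 0.0361) and was lost whichever experiment was left out (adjusted p from 0.151 to 0.233). Slc12a2, which brings sodium, potassium and chloride into the cell, had 12.70, 12.20 and 12.57 at 6 h and 11.89, 11.97 and 12.18 at 48 h. It fell along the trend by 0.32 ± 0.07 per day (adjusted p = 0.00849), a call lost without experiment 2 or 3 (adjusted p up to 0.0689), and its changes from 0 h of 0.62 at 6 h and 0.51 at 24 h passed only with the block (adjusted p = 0.00665 and 0.0213). The 24 h change was 0.28 without experiment 2.

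Slc4a2, an exchanger of chloride for bicarbonate that lowers internal pH, rose quickly and then came down. The arrays read 10.13, 10.28 and 10.38 at 0 h, 10.76, 10.71 and 11.18 at 6 h, and 10.27, 10.31 and 10.30 at 48 h. The rise was 0.62 ± 0.14 at 6 h (adjusted p = 0.00700) and 0.48 ± 0.14 at 24 h (adjusted p = 0.0383), and the trend from 6 h on was -0.29 ± 0.07 per day (adjusted p = 0.00966). At 48 h its 3 arrays lay within the range of the 0 h arrays. The 6 h call was lost without experiment 1 or 3, the 24 h call whichever experiment was left out, and the trend call without experiment 3, with adjusted p up to 0.183, 0.367 and 0.221.

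Slc4a3, the other exchanger of this type, was at 9.61, 10.32 and 9.78 at 0 h and at 10.61, 10.46 and 10.50 at 24 h, a rise of 0.62 ± 0.18 (adjusted p = 0.0325). The array of experiment 2 was already high at 0 h, and the call was lost without experiment 1 (adjusted p = 0.304) or experiment 3 (adjusted p = 0.424). By 48 h the arrays read 9.74, 10.18 and 9.87. Slc9a8, a sodium-proton exchanger of the Golgi, and the phosphate carrier Slc20a1 passed neither contrast from 0 h with or without the block.

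**Figure D2:**
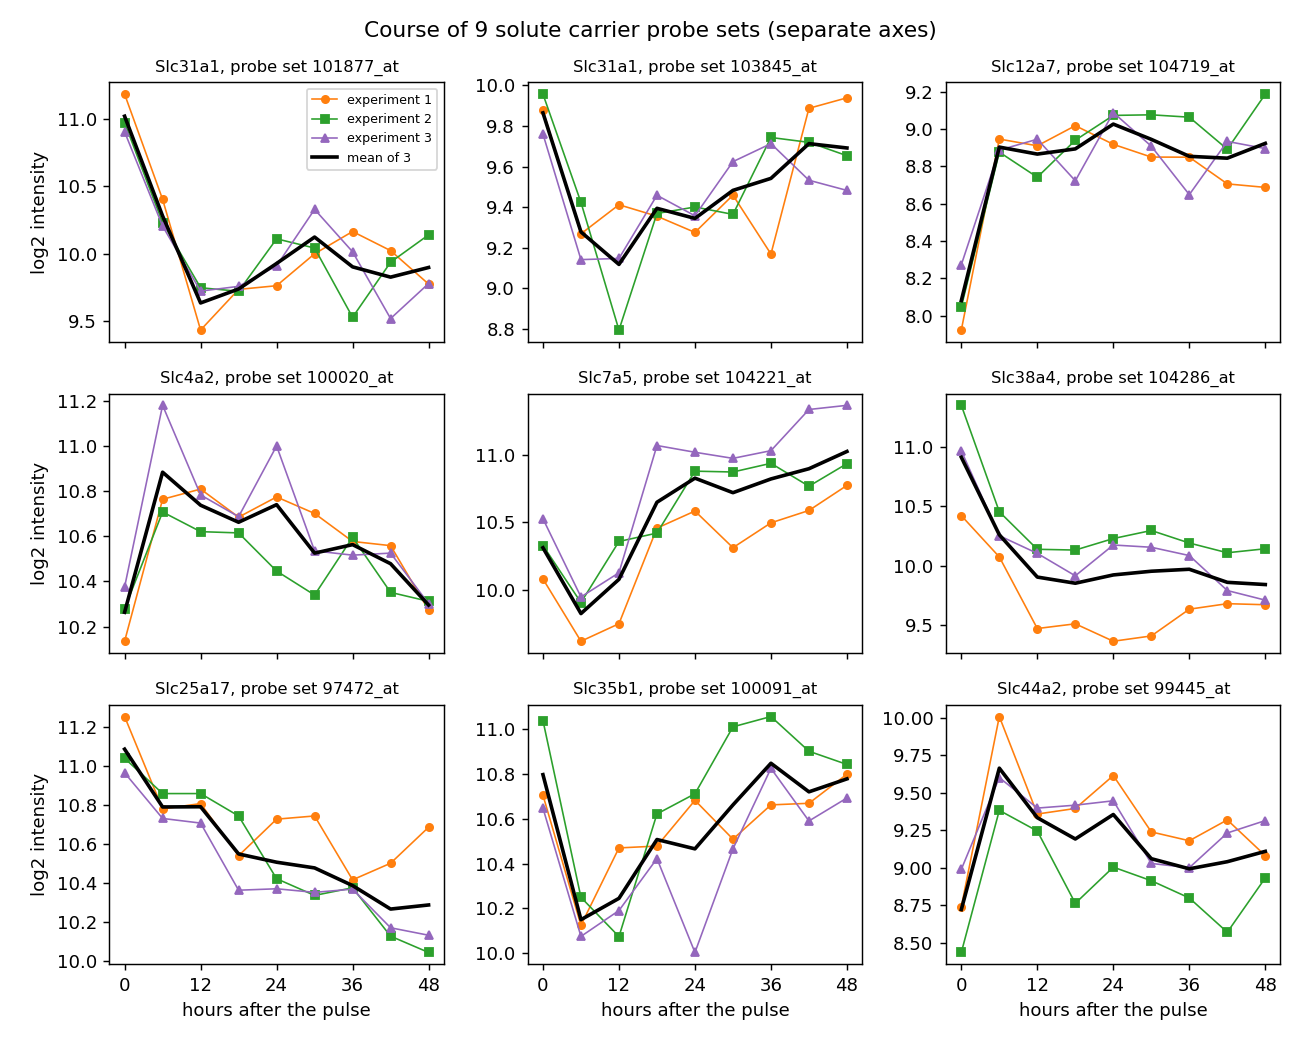
Log2 intensity against time after the pulse (h) for 9 member probe sets; coloured points and lines are the 3 experiments and the black line is their mean. Slc31a1 (101877_at) is highest at 0 h, Slc12a7 is lowest at 0 h, Slc4a2 returns to its 0 h range by 48 h and Slc7a5 is lowest at 6 h and climbs later.

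Among 13 probe sets for amino acid and peptide carriers, 1 fell at 6 h (2.39% of all probe sets) and 2 fell at 24 h (2.84% of all). Along the trend 1 rose (2.83% of all). With the block 3 fell (6.74% of all) and 1 rose (9.97% of all) at 6 h. At 24 h 3 fell (7.96% of all) and 1 rose (10.6% of all) with the block. The class medians were -0.16 at 6 h and 0.06 at 24 h. Slc7a5, the light chain of the exchanger that brings in leucine and other large amino acids, read 10.08, 10.33 and 10.53 at 0 h, 9.62, 9.90 and 9.95 at 6 h, 10.58, 10.88 and 11.02 at 24 h, and 10.77, 10.94 and 11.37 at 48 h. It dipped below its 0 h range at 6 h and was higher at 24 h in every experiment. The trend of 0.53 ± 0.12 per day was called (adjusted p = 0.00762), but not without experiment 2 or 3 (adjusted p up to 0.107). Against 0 h, the change of -0.49 at 6 h passed only with the block (adjusted p = 0.00824), as did that of 0.52 at 24 h (adjusted p = 0.00482).

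Slc3a2, the heavy chain that carries Slc7a5 to the surface, had a slope of 0.19 ± 0.08 per day that passed only with the block (adjusted p = 0.0356). It stood at 11.67, 11.39 and 11.75 at 6 h and at 12.04, 11.87 and 12.30 at 48 h. Slc38a4, a sodium-coupled carrier of neutral amino acids, went from 10.42, 11.36 and 10.97 at 0 h to 9.36, 10.23 and 10.17 at 24 h. The groups did not overlap, and the experiments kept their order at both times. The fall at 24 h was 1.00 ± 0.28 on the log2 scale (adjusted p = 0.0291), lost without experiment 2 (adjusted p = 0.177) or 3 (adjusted p = 0.301), and that at 6 h, 0.66, passed only with the block (adjusted p = 8.90e-04). The related Slc38a2 was 0.57 lower at 24 h, again only with the block (adjusted p = 0.0353).

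Slc66a2, placed in this class by its family, fell from 10.18, 10.11 and 9.98 at 0 h to 9.14, 9.67 and 9.67 at 6 h and 9.34, 9.63 and 9.56 at 24 h. Its changes were -0.60 ± 0.16 (adjusted p = 0.0226) and -0.58 ± 0.16 (adjusted p = 0.0252). Experiment 1 had the lowest value at 6 h, and without it the 6 h change was -0.38 (adjusted p = 0.172). Without experiment 2 or 3 both calls were also lost, as was the 24 h call without experiment 1, with adjusted p up to 0.204. Slc6a9, a glycine transporter, was at 9.02, 10.06 and 10.70 at 0 h and 10.34, 11.19 and 11.30 at 6 h. It was higher in each experiment, and the groups overlapped, with the 0 h arrays spread from 9.02 to 10.70. The change of 1.01 ± 0.37 was called with the block (adjusted p = 0.00119) and not without it (adjusted p = 0.126).

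The 18 probe sets for carriers of the Slc25 family had medians near 0, at -0.07 at 6 h and -0.09 at 24 h. At 6 h 0 rose (3.70% of all probe sets) and 0 fell (2.39% of all), and at 24 h 1 fell (2.84% of all). With the block 1 fell at 6 h (6.74% of all), and 2 rose (10.6% of all) and 4 fell (7.96% of all) at 24 h. The one called at 24 h without the block was Slc25a17, which works in peroxisomes rather than mitochondria and carries coenzyme A and related cofactors. Its arrays read 11.26, 11.04 and 10.97 at 0 h, 10.73, 10.42 and 10.37 at 24 h, and 10.69, 10.04 and 10.13 at 48 h. The 24 h change was -0.58 ± 0.16 (adjusted p = 0.0281) and the trend -0.29 ± 0.07 per day (adjusted p = 0.0152). Both calls were lost without experiment 2 (where the trend was -0.19) or experiment 3, with adjusted p up to 0.316 and 0.363.

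Slc25a1, the exporter of mitochondrial citrate, was measured by a pair of probe sets. By 94807_at it fell by 0.34 ± 0.10 per day (adjusted p = 0.0409), from 10.82, 11.35 and 11.05 at 6 h to 9.82, 10.68 and 10.32 at 48 h, lost without experiment 2 or 3 (adjusted p up to 0.352). By 162358_i_at the slope was -0.20, called only with the block (adjusted p = 0.0279), and -0.13 without experiment 1. Slc25a36, a carrier of pyrimidine nucleotides whose promoter window is printed above, was at 10.46, 10.15 and 10.50 at 0 h and at 10.73, 10.67 and 11.09 at 24 h, a change of 0.46 ± 0.18 that passed only with the block (adjusted p = 9.42e-04). For Slc25a5, an exchanger of ATP for ADP, the probe set 100618_f_at changed by -0.59 at 6 h and -0.84 at 24 h, both only with the block (adjusted p = 0.0232 and 0.00124). Its name carries the suffix Affymetrix gives to probes shared by related sequences, so signal from other family members cannot be told apart from it. Slc25a15, the ornithine carrier, had a slope of 0.29 per day with the block (adjusted p = 0.00683), and 0.45 at 24 h (adjusted p = 0.0497).

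Of 11 probe sets for nucleosides, nucleotide sugars and acetyl-CoA, 2 fell (2.39% of all probe sets) and 0 rose (3.70% of all) at 6 h. Along the trend 1 rose (2.83% of all). The class median was 0.18 at 6 h and -0.17 at 24 h (0.0038 at 24 h with 1 probe set per gene). Taken within experiments 1, 2 and 3, the 6 h median was -0.10, -0.24 and -0.09. The pooled 6 h value therefore gives no direction for the class. Slc35b1, which exchanges ATP for ADP across the membrane of the endoplasmic reticulum, stood at 10.71, 11.04 and 10.65 at 0 h, at 10.12, 10.25 and 10.07 at 6 h, and at 10.80, 10.84 and 10.69 at 48 h. It fell by 0.65 ± 0.18 on the log2 scale at 6 h (adjusted p = 0.0289) and rose by 0.40 ± 0.08 per day after that (adjusted p = 0.00426), which brought it back to its starting range. The 6 h call was lost whichever experiment was left out (adjusted p from 0.133 to 0.187), and the trend call without experiment 2 or 3 (adjusted p up to 0.0832).

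Slc35e1, a family member without a settled cargo, fell at 6 h by its probe set 104475_at from 9.21, 9.18 and 9.02 to 8.59, 8.33 and 8.09, with no overlap. The fall was 0.80 ± 0.21 on the log2 scale (adjusted p = 0.0244), lost whichever experiment was left out (adjusted p up to 0.306). Its other probe set, 161355_f_at, changed by -0.45 at 6 h without a call. Slc29a1, the main equilibrative nucleoside transporter, read 8.75, 9.20 and 8.96 at 0 h and 9.21, 10.22 and 9.76 at 6 h. Every 6 h array was higher than every 0 h array, and the change of 0.76 ± 0.26 passed only with the block (adjusted p = 2.71e-04). Slc35a1, which carries CMP-sialic acid into the Golgi, changed by 0.40 at 6 h, again only with the block (adjusted p = 0.0271).

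Of 11 probe sets for vitamins, choline and lipids, 1 rose (3.70% of all probe sets) and 0 fell (2.39% of all) at 6 h without the block. None was called at 24 h without the block, where 4.08% of all rose and 2.84% fell. With the block 2 rose at 6 h (9.97% of all), and 1 rose (10.6% of all) and 1 fell (7.96% of all) at 24 h. Slc44a2, a choline transporter-like protein, went from 8.74, 8.43 and 8.99 at 0 h to 10.01, 9.38 and 9.60 at 6 h and 9.08, 8.93 and 9.31 at 48 h. The groups at 0 h and 6 h did not overlap. The rise was 0.94 ± 0.22 (adjusted p = 0.0105), lost without experiment 1 (adjusted p = 0.141) or 3 (adjusted p = 0.129). With the block it was also higher at 24 h, by 0.63 (adjusted p = 0.00173), and fell by 0.33 per day from 6 h on (adjusted p = 0.00180). The fatty acid transport protein Slc27a1 had values of 7.28, 7.20 and 6.46 at 0 h and 8.62, 7.88 and 8.99 at 6 h, a change of 1.52 ± 0.72 called only with the block (adjusted p = 0.0308). The mean change was 1.01 without experiment 3, and the experiment 2 array was at 5.54 at 48 h, where the others were at 8.12 and 7.80. The vitamin C transporter Slc23a2 was at 10.47, 9.59 and 9.81 at 0 h and at 9.08, 9.38 and 9.50 at 24 h, lower by 0.63 with the block only (adjusted p = 0.0236). Experiment 1 had by far the largest change, -1.39, and the mean change of the other experiments was -0.26.

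The remaining classes were small or showed few calls. Of 11 probe sets for organic ions and other organic solutes none was called in any contrast without the block, and the taurine transporter Slc6a6, by its probe set 97383_at, was at 10.31, 10.57 and 11.01 at 0 h and 10.21, 9.83 and 9.84 at 6 h, lower by 0.67 with the block only (adjusted p = 0.0398) and by a mean change of -0.42 without experiment 3. Of 3 probe sets for sugars, Slc50a1, a sugar efflux transporter, rose at 6 h from 9.78, 10.08 and 9.80 to 10.27, 10.49 and 10.69. The rise was 0.60 ± 0.15 (adjusted p = 0.0190) with no overlap, and it was lost whichever experiment was left out (adjusted p up to 0.403). Of 3 probe sets grouped with carboxylate carriers, Slc10a3 fell from 9.38, 9.46 and 9.48 to 8.45, 9.31 and 8.74, by 0.61 ± 0.17 on the log2 scale (adjusted p = 0.0382). The experiment 2 array was the least changed, and the call was lost without experiment 1 (adjusted p = 0.230) or 3 (adjusted p = 0.507).

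The adaptor Slc9a3r1, a scaffold protein that tethers membrane transporters to the cytoskeleton, was at 10.72, 9.43 and 9.77 at 0 h and at 9.15, 9.22 and 9.50 at 6 h and 9.46, 8.90 and 9.01 at 24 h. It was lower in every experiment, by 0.69 at 6 h and 0.85 at 24 h, and both changes passed only with the block (adjusted p = 0.0140 and 0.00236). The 0 h array of experiment 1 was the highest of all, and without that experiment the mean change at 6 h was -0.24.

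**Figure D3:**
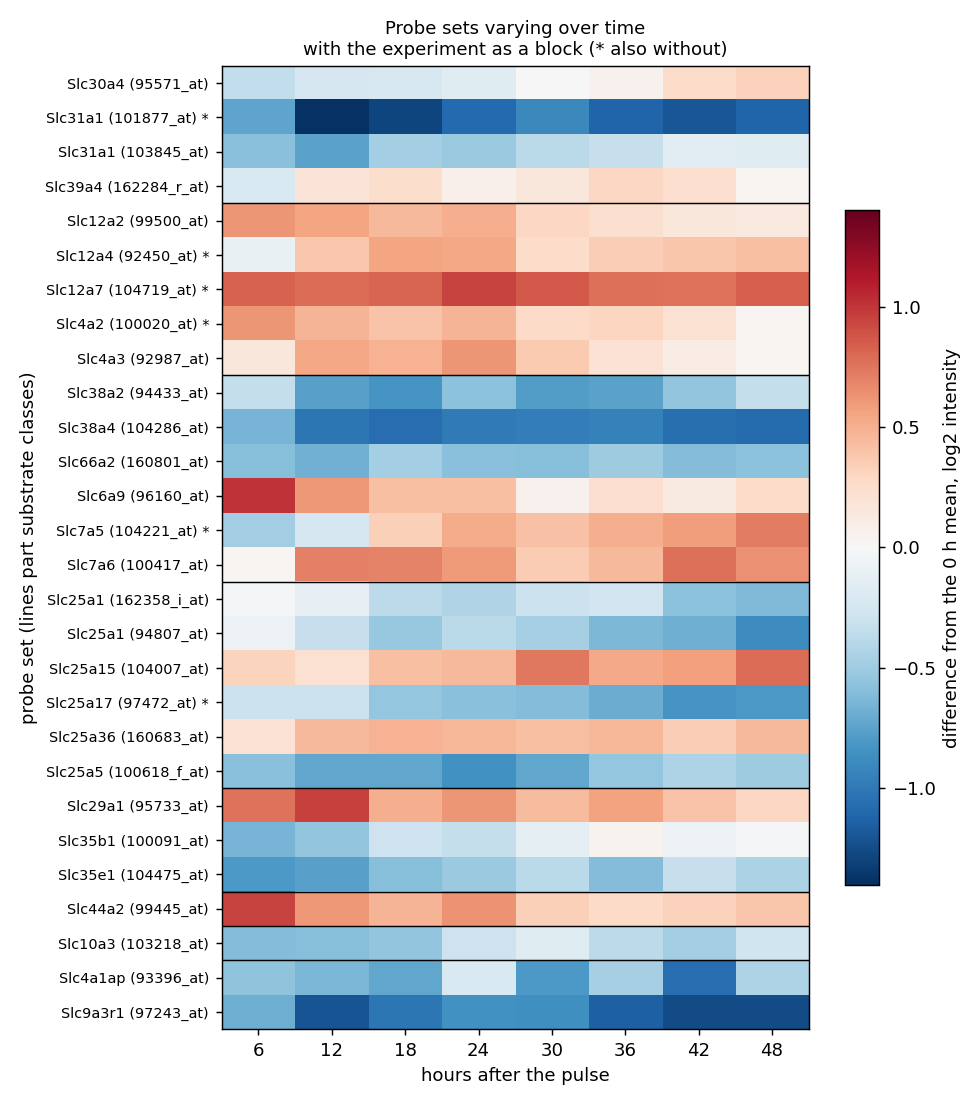
Mean log2 intensity at each time point minus the 0 h mean (mean of 3 arrays) for the 28 member probe sets that varied over time with the experiment as a block; columns are hours after the pulse, red is higher and blue lower than 0 h, and an asterisk marks the 6 that also varied without the block. Slc31a1 (101877_at) is lower and Slc12a7 higher at every later time point.

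Between 24 h and 48 h, 1 day apart, no member rose (0% of all probe sets) or fell (0.0268% of all) without the block. At an unadjusted p below 0.05 there were 3 of the 97 members. Of the 7453 probe sets tested, 143 were higher and 194 lower at that limit. With the block 0 rose (0.188% of all) and 1 fell (0.389% of all), and this was Slc4a3. Its 48 h arrays were lower by 0.88, 0.28 and 0.63 in experiments 1, 2 and 3, a mean change of -0.60 ± 0.18 (adjusted p = 0.606 without the block and 0.0213 with it). Slc4a2, the exchanger of the same type, had the next smallest p, with a change of -0.45 ± 0.14 (adjusted p = 0.645, and 0.0775 with the block).

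The series was designed to look for transcripts with a circadian course, and no member passed the limma test for a 24 h rhythm, nor did any probe set (0% of 7453, and 0% with the block). At an unadjusted p below 0.05 there were 4 members and 248 probe sets in all, and with the block 10 and 783. The 3 smallest p belonged to Slc31a1 by 101877_at (amplitude 0.22, unadjusted p = 0.00820 by the limma F test, highest point at 4.76 h of the cycle), Slc12a4 (amplitude 0.19, highest at 18.9 h) and Slc7a6, an amino acid exchanger (amplitude 0.25, highest at 18.0 h). None of the 3 had an adjusted p below 0.334 with the block.

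The experiments differed in level for 59 of the 97 members, against 65.0% of all probe sets. Experiment 1 was the highest for 28 of the 59, experiment 2 for 19 and experiment 3 for 12, so that no experiment was highest or lowest throughout. The median spread between the experiment means of these members was 0.53 and the largest was 1.34 on the log2 scale. Slc25a11, the carrier that exchanges oxoglutarate for malate, averaged 10.64, 9.94 and 10.14 in experiments 1, 2 and 3 (adjusted p = 1.44e-06). In experiment 1 it lay between 10.66 and 10.82 on 8 arrays and at 9.89 at 42 h. Slc35d1, which brings UDP-sugars into the endoplasmic reticulum, averaged 7.53, 8.35 and 8.31 (adjusted p = 6.79e-07), and Slc9a8 9.37, 9.87 and 9.95 (adjusted p = 5.50e-07). Both were lowest in experiment 1. Slc25a1 by 162358_i_at, Slc38a4, Slc44a4, Slc29a1, Slc25a1 by 94807_at, Slc25a36 and Slc7a5 made up the rest of the 10 smallest p.

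Several of those genes also appear among the changes over time, and their arrays show both patterns. Slc38a4 averaged 9.69, 10.34 and 10.13 in experiments 1, 2 and 3, and each experiment was lower at 24 h than at 0 h. Slc7a5 averaged 10.30, 10.60 and 10.82. The actin 3′ to 5′ ratio ran from 1.44 to 1.73 on the arrays of experiment 1, from 1.11 to 1.35 in experiment 2 and from 1.32 to 1.73 in experiment 3. Its part in the differences between experiments was not tested. The count of members that differed was 27 without experiment 1 and 39 without experiment 2. Over the 97 members the median share of variance was 33.1% between time points, 24.8% between experiments and 33.6% in the rest, beside 31.5%, 28.4% and 31.4% over all probe sets tested.

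**Figure D4:**
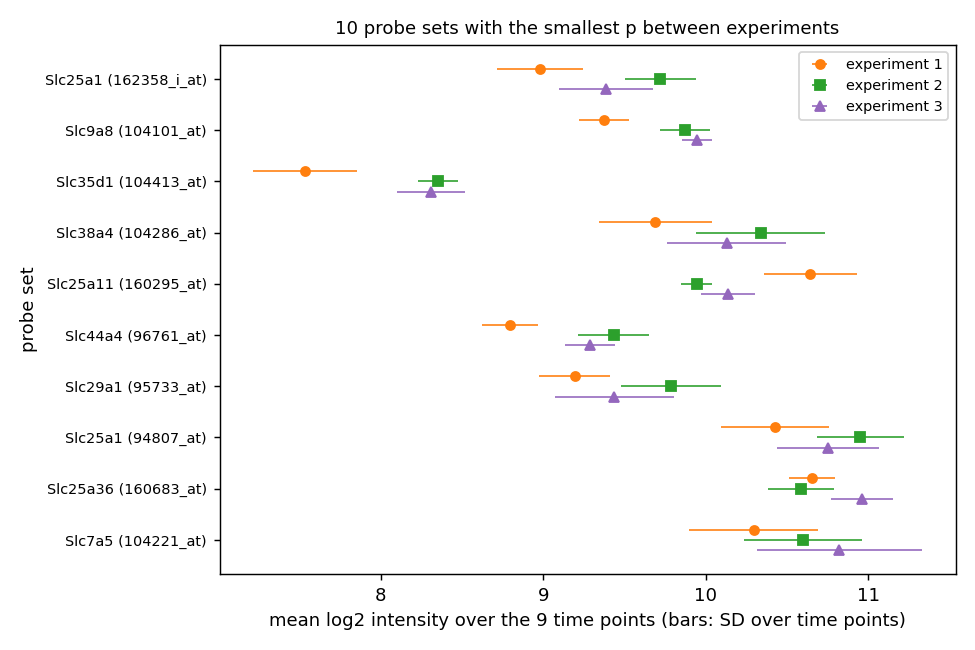
Mean log2 intensity ± SD over the 9 time points in each of the 3 experiments, for the 10 member probe sets with the smallest p between experiments. Slc25a11 is highest in experiment 1, and Slc35d1, Slc9a8 and Slc38a4 are lowest there.

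A total of 9 genes had a pair of member probe sets each. At 6 h the pairs of Slc11a2, Slc31a1, Slc25a1, Slc25a5, Slc25a51, Slc35e1, Slc6a6 and Slc19a1 had the same sign. For Slc6a6 the changes were -0.64 and -0.67, for Slc25a5 -0.59 and -0.55, and for Slc25a51, a mitochondrial carrier of NAD, -0.43 and -0.20. For Slc19a1, the folate carrier, both lay near 0, at -0.01 and -0.07. The pair of Slc23a3 had opposite signs, -0.29 for 161149_r_at and 0.26 for 98800_at, and neither was called. Of the 97 member probe sets 10 bear an Affymetrix suffix for shared or incompletely selective probes, 5 of them the _f suffix, 3 the _r suffix and 2 the _i suffix.

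Transporters outside the solute carrier numbering were counted with the same tests. Of 46 listed genes for ABC transporters, ion pumps, aquaporins and partner proteins, 32 were on the array and 21 were tested. Emb, the partner protein of monocarboxylate transporters, was the 1 that varied over time without the block (adjusted p = 0.00237), and it fell by 0.39 ± 0.06 per day from 6 h on (adjusted p = 6.57e-04). Without the block none of the 21 rose or fell at 6 h or 24 h. With it 1 of 21 rose at 6 h (Abca2), where 9.97% of all probe sets rose, and 2 of 21 fell at 24 h (Emb and Atp1b3, a sodium pump subunit), where 7.96% of all fell. The copper exporter Atp7a, at -0.37 ± 0.53 at 6 h, was not called.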

How the data were processed

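The authors deposited probe set intensities on a linear scale, already scaled between arrays: after leaving out 2% at each end, the mean of every array lay between 500.28 and 500.35. The sources used here do not name the algorithm. Without detection calls, dim signals and background cannot be separated. Quantile normalized values of log2(intensity + 12.1) were analysed (12.1 is the 10th percentile of all intensities), which understates changes of dim probe sets. Of the probe sets other than controls, 7453 had a mean at or above the 40th percentile and were kept.

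Tests used limma 3.58.1 in R 4.3.3 on the whole table, with eBayes fitted to the intensity trend and p-values adjusted by Benjamini and Hochberg over all 7453. One fit of the 9 time means gave the contrasts and the F test over time, the 24 arrays from 6 h to 48 h gave the trend and the rhythm (24 h cosine and sine terms beside a line), and a fit of time point plus experiment gave the test between experiments. Arrays of the same experiment deviated together from the time means (r from 0.426 to 0.642, 0.349 to 0.599 and 0.135 to 0.482 in experiments 1, 2 and 3, over 36 pairs each), so the experiment numbers paired the samples, and results of the fit that has the experiment as a block stand where they change a call. Without the block, p-values rest on the spread of arrays around the time means or the fitted curve, pooled over time points. That spread includes differences between the experiments. With the block, and in the test between experiments, they rest on the spread left after the level of each experiment is taken out. Either way 3 experiments stand behind each time point.

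Members were matched to RefSeq by gene identifier (97 of 97). Substrate classes were set by the main cargo of each family or, as in Slc6, of single members, with adaptor proteins apart. Named with values were called members with 1 sign in all 3 experiments, the 10 smallest p over time and between experiments, the 3 smallest for the rhythm, 1 member per class, genes with several probe sets and those next to the intensity limit. Members called only with the block, and those set beside them, were chosen after their values were seen. The members, the classes, the lists and the rule were chosen with earlier results of these data known. The code was tested on simulated data. Alternatives changed the scaling, pseudocount, filter, variance model, block, period, trend term and experiments used.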

Additional observations from a re-analysis of the deposited data

How the results depend on the processing

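With the experiment as a block, 28 members varied over time, 9 rose and 12 fell at 6 h, 12 rose and 12 fell at 24 h, 7 rose and 10 fell along the trend, and 1 fell between 24 h and 48 h. With arrays centred on their medians, 2 members fell at 6 h, and 2 rose and 2 fell at 24 h. Without a filter on low values, which tested 12422 probe sets, 4 fell at 6 h and 2 rose at 24 h. Leaving out 1 experiment gave 0 to 6 members varying over time, 1 to 4 rises and 0 to 3 falls at 6 h, 1 to 3 rises and 1 to 4 falls at 24 h, 0 to 4 trend rises, 0 to 7 trend falls, and 27 to 46 members differing between experiments. Calls over time across all probe sets changed under these omissions too, as given above. With 1 probe set per gene, the median change at 24 h of the nucleoside and nucleotide sugar class was 0.0038, and that of the vitamin, choline and lipid class at 6 h was 0.25. Of the 33 results named without the block, none reversed, and calls lost numbered 14 with median centring, 8 without the filter, 6 without the intensity trend, 1 with the scaling as deposited and 0 with the block or either other pseudocount. Omitting experiments 1, 2 and 3 lost 16, 24 and 30, partly by construction, since fewer arrays remained. Only 3 of the 33 were called under every omission: Slc12a7 at 6 h and 24 h, and Slc31a1 (101877_at) at 24 h. For these 33 the omissions were run without the block, so differences in level between the remaining experiments stayed in the error term. They were not refitted with the block. The number of arrays limits the precision.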
